A study of Mus musculus with 2 samples.

Results

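The genes described here encode the heat shock proteins, the DnaJ (J-domain) proteins and the subunits of the TRiC chaperonin, which together make up most of the general protein-folding machinery of the cell. They were chosen by name: every protein-coding gene called Hspa, Hspb, Hspd, Hspe, Hsph or Hsp90 with a number or letter, every Dnaja, Dnajb or Dnajc gene, Cct2 to Cct8, and Tcp1. The rule found 80 of the 43346 genes with a row in the deposited tables, and 21461 of those genes were protein-coding genes of the nuclear genome. By class they were 10 HSP70, 3 HSP110, 3 HSP90, 2 HSP60 and HSP10, 8 TRiC, 4 DNAJA, 13 DNAJB, 28 DNAJC and 8 small HSP genes, and Hspbap1, which matches by name only. Hspa14 was not analysed here, and Cct6a, a TRiC subunit typed as a processed transcript in GENCODE M21, is given beside the others without being counted among the 80.

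RNA came from G1E, an immortalized mouse erythroid progenitor line that lacks functional Gata1, the master transcription factor of red cell development. The labels give strain C57BL/6J, male sex, a postnatal stage and an age of 0 days, and name no treatment. Each of 2 biological replicates gave 1 library of total RNA with the ribosomal RNA removed, made from 100 ng of RNA and with a size range of 200 to 1000 nt. Both libraries come from a single line and form 1 group, with no second condition.

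Chaperones bind unfolded stretches of other proteins and release them for folding. HSP70 does this in a cycle of ATP hydrolysis that J-domain proteins start and nucleotide exchange factors, among them the HSP110 proteins, reset. HSP90 acts later on kinases and receptors, HSP60 with its lid HSP10 folds proteins in the mitochondrial matrix, TRiC folds actin and tubulin in the cytosol, and small HSPs hold unfolded proteins without ATP. Several families pair a form made in unstressed cells with a form that heat shock factor 1 induces through heat shock elements, and in erythroid cells HSP70 is known for protecting GATA1 from caspase cleavage.

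Expected counts summed to 58094631 in replicate 1 and 55274368 in replicate 2. Gata1 had 1862 and 1922 counts, 7.06 and 7.13 TPM, in replicates 1 and 2; the labels do not say which piece of the gene is disrupted, so these counts do not test the label. All 8 markers of early erythroid progenitors were detected, from Epor at 2.74 ± 0.707 TPM to Tfrc at 106 ± 11.3 TPM (SD, n = 2). Of 6 late erythroid markers 3 were detected: Hba-a2 at 126 and 155 TPM, Hba-a1 at 44.9 and 56.5 TPM and Hbb-bs at 1.41 and 3.31 TPM. Hbb-bt, at 0.90 and 1.98 TPM, passed 1 TPM in replicate 2 only, and Alas2 and Slc4a1 were below 1 TPM in both. Of 8 markers of other blood cells Pf4 alone was detected, at 4.98 and 6.46 TPM. Nuclear protein-coding genes held 18% and 17% of all TPM in replicates 1 and 2, so levels below are small shares of the whole. In bulk RNA, fewer cells expressing a gene and less of its RNA per cell cannot be told apart.

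Heat shock and ER stress elements were searched by their letters in the members' promoters, and 3 sets of matches are shown before the levels: inducible HSP70, the chaperones with a longer heat shock element, and the ER chaperones. Promoter windows came from RefSeq on GRCm38.p6, 250 bases before to 50 after each start, and 65 of the 80 members had one, in 84 windows. Hspa8, Hspa9, Hsp90aa1 and Hsp90ab1 are among the 15 without a window. The first set is the 250 bases before the start of Hspa1a (chr17:34972157-34972406, minus strand) and of Hspa1b (chr17:34959239-34959488, minus strand), the stress-inducible HSP70 genes. Capitals mark a heat shock element of 2 units, GAA and TTC facing each other across 2 bases.
Hspa1a: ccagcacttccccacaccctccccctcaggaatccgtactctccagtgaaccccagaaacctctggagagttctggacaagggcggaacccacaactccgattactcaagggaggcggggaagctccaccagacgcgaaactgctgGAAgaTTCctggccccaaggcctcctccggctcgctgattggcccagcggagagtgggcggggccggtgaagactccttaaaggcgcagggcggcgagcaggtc
Hspa1b: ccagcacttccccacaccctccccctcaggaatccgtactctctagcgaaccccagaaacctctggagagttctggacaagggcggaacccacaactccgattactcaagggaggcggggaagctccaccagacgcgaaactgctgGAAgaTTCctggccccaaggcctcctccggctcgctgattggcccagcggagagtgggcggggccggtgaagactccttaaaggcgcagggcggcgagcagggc
The 2 stretches differ at 3 of 250 bases and hold the element at the same place, its first base at -104 from the start.

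The second set holds the 30-base stretches around elements of 3 or more units, which only 4 of the 65 members with a window carry: Hspe1 (chr1:55088055-55088084, plus strand), Hspd1 (chr1:55088051-55088080, minus strand), Dnajb6 (chr5:29735843-29735872, plus strand) and Hsph1 (chr5:149636280-149636309, minus strand). Capitals mark the GAA and TTC units.
Hspe1: tccgTTCtaGAAccTTCcgGAAggccccgc
Hspd1: ggccTTCcgGAAggTTCtaGAAcggaccgt
Dnajb6: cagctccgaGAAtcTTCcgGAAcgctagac
Hsph1: tgctgcagaTTCtgGAAagTTCtcctcagt
Hspe1 and Hspd1, which encode HSP10 and HSP60, are neighbours on opposite strands, and their 4 units are the same bases read from either side. The Dnajb6 element starts at -46 or -127 from its annotated starts, and that of Hsph1 at 16 or 37 bases after the start.

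The third set is the ER stress response element, CCAAT and CCACG separated by 9 bases, which the ATF6 and NF-Y factors are known to bind. It was present in Hspa5 (chr2:34772019-34772048, plus strand), Hsp90b1 (chr10:86705633-86705662, minus strand) and Dnajc3 (chr14:118937821-118937850, plus strand). Capitals mark CCAAT and CCACG.
Hspa5: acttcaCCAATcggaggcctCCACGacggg
Hsp90b1: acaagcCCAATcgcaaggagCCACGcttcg
Dnajc3: ccacaaCCAATcagcgccaaCCACGacccg
Hsp90b1 holds the same letters once more on the other strand, with its first base at -107 against -212 for the copy shown.

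Over all 65 windows' genes, 18 (27.7%) held the 2-unit element (GAANNTTC or TTCNNGAA, the same on both strands), against 15.7% of 16317 nuclear protein-coding genes. An element of 3 units, which extends those letters by 1 more unit at the same spacing and so always holds overlapping 2-unit matches, was searched on both strands and found in 6.15% of the members and 0.552% of those genes. The ER element was found in 4.62% of the members, 3 genes, against 0.172%. The 2-unit letters were in the windows of 9 of 42 detected members and 9 of 23 undetected ones. The 4 genes with 3 units ranged from Hsph1 at 3.57 ± 0.509 TPM to Hspd1 at 135 ± 21.4 TPM (SD, n = 2). A match of letters is a description and not a measured binding site.

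Chaperone mRNAs were plentiful in G1E. Of the 80 genes, 53 (66.2%) were detected, meaning a TPM (a level per length, scaled to the same total in each library) of at least 1 in both libraries, against 38.7% of all nuclear protein-coding genes. Their median was 5.15 ± 0.817 TPM (SD of the library medians, n = 2), against 0.055 TPM over all nuclear protein-coding genes. Among detected genes alone the medians were 17.2 and 7.0 TPM. Together the 80 took 1.74% and 1.59% of the TPM of nuclear protein-coding genes in replicates 1 and 2.

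Most members lay at levels between a few very abundant genes and a group near 0. The 8 genes at 100 TPM or more were Hspa8, Hsp90aa1, Hsp90ab1, Tcp1, Hspd1, Hspe1, Cct8 and Cct2, and they held 1.09% ± 0.0656 (SD, n = 2) of nuclear protein-coding TPM. Below detection were 27 genes, of which 20 had a mean under 0.1 TPM. The other 7 lay between 0.25 and 1.08 TPM; Dnajc25 (1.20 and 0.95), Dnajc27 (1.04 and 0.89) and Dnajc28 (0.98 and 0.97) sat at the edge of the limit.

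**Figure D1:**
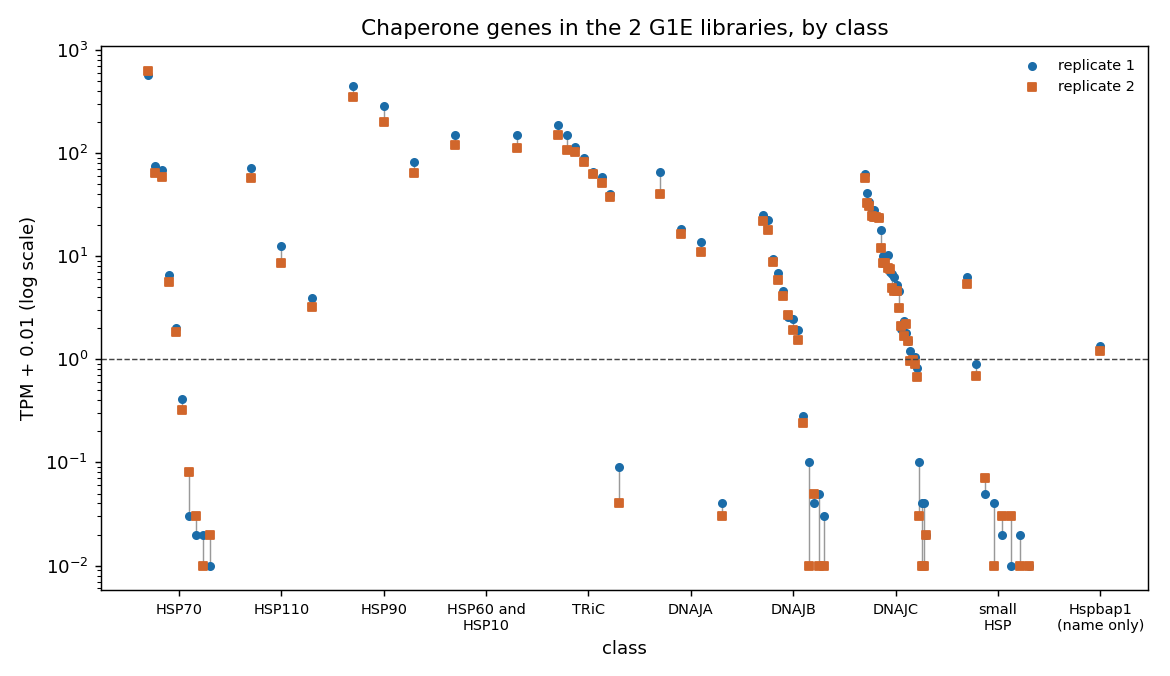
TPM plus 0.01 on a log axis for the 80 genes by class, with circles for replicate 1, squares for replicate 2, a line joining each gene and a dashed line at 1 TPM. HSP90, HSP110, HSP60 and HSP10 lie wholly above the line, HSP70 and the DNAJ classes are spread on both sides, and 7 of 8 small HSP genes lie below it.

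The HSP70 genes that unstressed cells use carried nearly all HSP70 message. Hspa8, the constitutive cytosolic HSP70 (HSC70; chromosome 9, 40800984 to 40810087, GRCm38), was at 566 and 627 TPM in replicates 1 and 2, which placed it 36th and 26th among nuclear protein-coding genes. Hspa9, the mitochondrial HSP70, was at 74.3 and 63.4 TPM, and Hspa5, the ER HSP70 known as BiP, at 67.8 and 58.3 TPM. Hspa8 was the higher by a wide gap in both libraries, and Hspa9 and Hspa5 did not differ beyond the limit used for pairs.

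That limit was 3 times the combined replicate SD of genes of like level, on the log2(TPM + 1) scale, which understates ratios of genes near 0. Hspa9 exceeded Hspa5 by 0.12 ± 0.006 (SD, n = 2) against a limit of 0.78. Hspa8 exceeded Hspa2, known for its role in male germ cells and here at 2.02 and 1.84 TPM, by 7.67 ± 0.167 against a limit of 0.82. Hspa13, an atypical microsomal HSP70, was at 6.56 and 5.66 TPM and completed the 5 detected HSP70 genes.

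The stress-inducible HSP70 genes were almost silent. Hspa1a (chromosome 17, 34969190 to 34972156) had 0 and 6.07 counts, and Hspa1b (chromosome 17, 34956436 to 34959238) had 8 and 28.9 counts, in replicates 1 and 2. A count of 0 allows up to 3 counts, or 0.00645 TPM, for Hspa1a in replicate 1, where limits of this kind hold counting error and nothing else. Their sum was 8 and 35 counts, beside 142745 and 139818 for Hspa8, and was low in both libraries.

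Reads of these near-identical genes were partly divided between them by the quantifier. The posterior SD of the count, the authors' measure of that uncertainty, was 27.1% of the posterior mean for Hspa1a and 5.96% for Hspa1b in replicate 2, so the split between them is uncertain and the sum is the firmer value. Hspa1l, the germ-cell form beside them, was at 0.01 and 0.02 TPM. Hspa12b, a distant relative, was at 0.40 and 0.31 TPM, and Hspa12a at 0.01 and 0 TPM.

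HSP90 was the class with the highest median, 243 ± 60.1 TPM (SD, n = 2). Hsp90aa1 (chromosome 12, 110690605 to 110702728), the cytosolic form usually called inducible, was at 449 and 351 TPM. Hsp90ab1, the cytosolic form usually called constitutive, was at 286 and 201 TPM. Hsp90b1, the ER form known as GRP94, was at 82.4 and 63.9 TPM.

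The inducible cytosolic HSP90 thus had the higher value in both libraries, unlike inducible HSP70. Hsp90aa1 over Hsp90ab1 was 1.57 and 1.75 as a ratio of TPM and 2.45 and 2.77 as a ratio of counts. On the log2(TPM + 1) scale Hsp90ab1 was lower by -0.73 ± 0.109 (SD, n = 2), within the limit of 0.94, so the 2 did not differ beyond the error by that measure. Without a length correction the difference was -1.38 and passed. Hsp90b1 and its ER partner Hspa5 differed by 0.20 ± 0.104, within the limit of 0.78.

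Among the HSP110 nucleotide exchange factors, which reset HSP70, Hspa4 was the highest. Hspa4 was at 72.1 and 56.6 TPM, Hspa4l at 12.5 and 8.52 TPM, and Hsph1 (HSP105), the heat-inducible form, at 3.93 and 3.21 TPM. Hspa4 exceeded Hsph1 by 3.83 ± 0.082 on the log2(TPM + 1) scale (SD, n = 2), past the limit of 0.73, and Hspa4l by 2.52 ± 0.115, past 0.78. Part of the Hspa4 TPM was assigned to Hspa4-202, a retained-intron transcript of 630 nt with 46.3% and 39.9% of the gene's TPM. By counts it held 2357 of 30729 in replicate 1 and 1689 of 26894 in replicate 2. That is a much smaller part, because TPM divides by length.

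The mitochondrial chaperonin genes had nearly equal TPM. Hspd1 (HSP60; chromosome 1, 55077835 to 55088243, minus strand) was at 150 and 120 TPM, and Hspe1 (HSP10; chromosome 1, 55088132 to 55091307, plus strand) at 150 and 113 TPM. They differed by 0.05 ± 0.064 on the log2(TPM + 1) scale (SD, n = 2), within the limit of 0.94. Their annotated starts lie 111 bases apart with the 5′ ends overlapping on opposite strands, and no source used here gives the strand setting of the counts, so reads in the overlap are uncertain. By counts Hspd1, the longer gene, was 3.83 and 4.0 times Hspe1. The processed pseudogene Hspd1-ps3 held 2386 and 1664 counts, 9.36 and 6.39 TPM.

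The constitutive and inducible forms differed by family. The 6 constitutive forms Hspa8, Hspa5, Hspa9, Hsp90ab1, Hsp90b1 and Hspa4 were all detected, with a median of 71.0 ± 10.4 TPM (SD of the library medians, n = 2). Of the 6 inducible forms 3 were detected, Hsp90aa1, Dnajb1 and Hsph1, and Hspa1a, Hspa1b and Hspb1 were not; their median was 1.81 ± 0.237 TPM. Of the heat shock factors that drive the inducible forms, Hsf1 was at 2.36 and 2.09 TPM and Hsf2 at 1.78 and 1.54 TPM, a difference of 0.28 within its limit of 0.68. Hsf3, Hsf4 and Hsf5 were below 1 TPM, and Hsbp1, a small binding protein that restrains Hsf1, was at 18.5 and 15.1 TPM.

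TRiC is built from 8 different subunits in each of its rings, so its genes can be compared for balance. Tcp1 (CCT1; chromosome 17, 12915701 to 12925067) was the highest at 185 and 150 TPM, and Cct7 the lowest of the somatic subunits at 39.6 and 37.4 TPM. Tcp1 exceeded Cct7 by 2.09 ± 0.158 on the log2 scale (SD, n = 2), past the limit of 0.87. Between them, in descending order of the mean, lay Cct8 (150 and 107 TPM), Cct2 (114 and 101), Cct5 (90.04 and 81.71), Cct4 (65.5 and 62.1), Cct6a (61.0 and 52.2) and Cct3 (58.2 and 50.9). The annotated 5′ ends of Tcp1 and Cct7 overlap those of Mrpl18 and Pradc1 on the opposite strand. Without the strand setting, reads in those overlaps are uncertain.

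The order of the subunits by gene TPM was the same in both libraries. No neighbouring pair among the 8 differed beyond its limit, the largest gap being 0.49 between Cct3 and Cct7 against 0.78. The coefficient of variation over the 8 genes was 53.1% and 46.7%. Cct6b, the testis form of the zeta subunit, was at 0.08 and 0.03 TPM, and Cct6a exceeded it by 5.77 ± 0.108 on the log2(TPM + 1) scale (SD, n = 2), past the limit of 0.59.

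By the quantifier's estimate, short transcripts and others not typed as protein-coding made up part of these subunit levels. Cct8-202, a transcript of 716 nt, held 50.2% and 43.1% of the Cct8 TPM, and the 2394 nt transcript Cct8-201 held 33.8 and 30.9 TPM. By counts Cct8-202 had 6382 and 4132, below the 12437 and 11572 of Cct8-201. For Tcp1 27.9% and 28.1% of the TPM lay outside transcripts typed as protein-coding, and for Cct7 and Cct2 none did. Protein-coding transcripts alone summed to 133 and 108 TPM for Tcp1, 118 and 86.6 TPM for Cct8 and 114 and 101 TPM for Cct2, so on these Cct2 stood above Cct8 in replicate 2. By counts, with no length correction, Cct6a (14270 and 12507) lay below Cct7 (14951 and 14406) in both libraries. Cct8 (26679 and 21406) likewise lay below Cct2 (33656 and 30597) by counts in both.

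**Figure D2:**
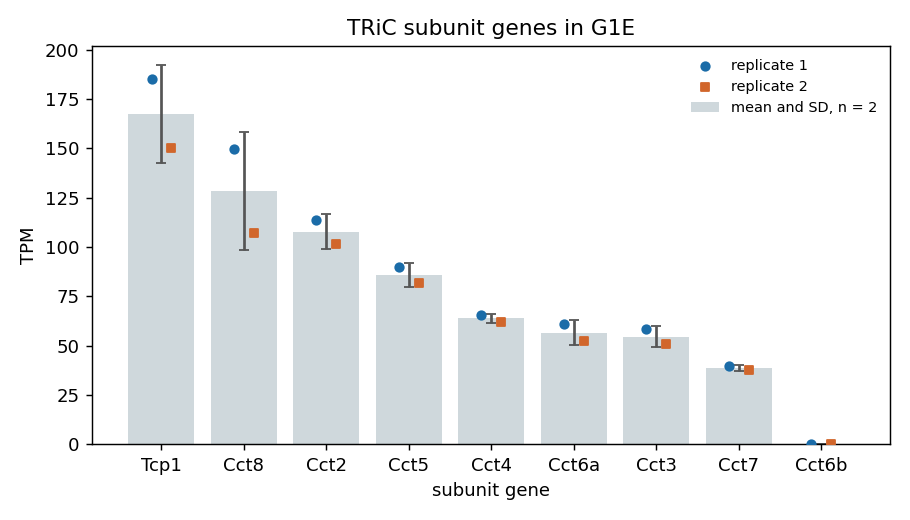
TPM of the 9 TRiC subunit genes in descending order of the mean, with bars for the mean, error bars for the SD (n = 2), circles for replicate 1 and squares for replicate 2. Tcp1 stands at 185 and 150 TPM, Cct7 at 39.6 and 37.4 TPM, and Cct6b near 0.

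J-domain proteins bring substrates to HSP70 and start its ATP hydrolysis, and 31 of the 45 J-protein genes were detected. Of the DNAJA class, relatives of bacterial DnaJ, Dnaja1 was the highest at 64.9 and 40.1 TPM, followed by Dnaja2 at 18.2 and 16.2 TPM and the mitochondrial Dnaja3 at 13.6 and 11.1 TPM. Dnaja1 exceeded Dnaja2 by 1.52 ± 0.37 on the log2(TPM + 1) scale (SD, n = 2), past the limit of 0.78. Dnaja4 had 10 and 9 counts, 0.03 and 0.02 TPM. Dnaja1 had the widest gap between the libraries of these 4.

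Of the 13 DNAJB genes 8 were detected, with a class median of 2.17 ± 0.354 TPM (SD, n = 2). The highest were Dnajb6, a suppressor of polyglutamine aggregation, at 25.1 and 22.1 TPM, and Dnajb11, an ER partner of BiP, at 22.4 and 17.9 TPM. Dnajb1 (HSP40), the heat-inducible partner of cytosolic HSP70, was at 9.36 and 8.76 TPM, below Dnajb6 by a difference of 1.29 ± 0.064 that passed the limit of 0.73. Dnajb9, an ER-stress-inducible J protein, was at 6.82 and 5.83 TPM. Dnajb5, at 0.27 and 0.23 TPM, led the undetected ones, and Dnajb3, Dnajb7, Dnajb8 and Dnajb13 had at most 18 counts in a library.

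The DNAJC class, whose members share little beyond the J domain, had 20 of 28 detected and a median of 5.15 TPM. Dnajc8, a splicing-associated protein, led with 62.3 and 57.3 TPM, ahead of Dnajc9, a histone chaperone, at 41.1 and 33.0 TPM. Dnajc19, a subunit of the mitochondrial import motor, was at 33.1 and 30.9 TPM, and Dnajc15, its relative at the same motor, at 24.1 and 24.0 TPM. Dnajc2, the ribosome-associated J protein known as MPP11, was at 27.8 and 24.2 TPM. These 5 kept the same order in both libraries.

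Of the 8 undetected DNAJC genes, Dnajc5b, Dnajc6, Dnajc22 and Dnajc5g were near 0, and Dnajc12 was at 0.81 and 0.66 TPM. Dnajc5, the cysteine string protein of secretory vesicles, was at 9.73 and 8.58 TPM, and exceeded its relative Dnajc5b (11 and 2 counts) by 3.27 ± 0.048 on the log2(TPM + 1) scale (SD, n = 2), past the limit of 0.53. Dnajc6, the neuronal auxilin, had 7 and 11 counts, while Gak, the ubiquitous auxilin named otherwise, was at 17.0 and 15.4 TPM. Dnajc22 had 7 and 0 counts and Dnajc5g 2 and 0.

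Of the 8 genes classed as small HSPs by their Hspb names alone, 1 was detected and 7 were not. Hspb11, which is also a subunit of the intraflagellar transport complex (IFT25), was at 6.27 and 5.38 TPM. Hspb1 (HSP25; chromosome 5, 135887919 to 135889563), the main inducible small HSP, had 0 and 3 counts, which is no more than the 3 counts a count of 0 allows. Hspb6 was just under the limit at 0.90 and 0.68 TPM, and Hspb2, Hspb3, Hspb7, Hspb8 and Hspb9 had at most 5 counts in a library. The crystallins Cryaa and Cryab and Odf1, small HSPs with other names, were also undetected.

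The members listed for the ER lumen and the mitochondria were all detected, in lists drawn up with earlier results of these data known. Full detection therefore describes the listed genes and is not a test of a class. The 7 ER lumen members (Hspa5, Hsp90b1, Hspa13, Dnajb9, Dnajb11, Dnajc3 and Dnajc10) had a median of 20.1 ± 3.14 TPM, and the 8 mitochondrial members (Hspa9, Hspd1, Hspe1, Dnaja3, Dnajc11, Dnajc15, Dnajc19 and Dnajc30) one of 28.0 ± 0.81 TPM (SD of the library medians, n = 2). Their partner genes were detected too, 12 of 12 ER folding genes with Calr highest at 160 ± 22.8 TPM and Sec63 lowest at 2.37 ± 0.757 TPM, and 10 of 10 mitochondrial ones with Timm44 highest at 20.9 ± 2.73 TPM and Grpel2 lowest at 3.78 ± 0.0212 TPM.

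Co-chaperone lists, drawn up with the same prior knowledge, followed the same pattern. All 9 HSP70 co-chaperones were detected, from St13 (HIP) at 52.6 ± 11.4 TPM to Bag3, a stress-inducible exchange factor, at 1.39 ± 0.509 TPM. All 14 HSP90 co-chaperones were detected, from Ahsa1, which stimulates the HSP90 ATPase, at 64.6 ± 1.65 TPM to Fkbp5 at 2.81 ± 0.636 TPM. All 16 prefoldin, tubulin-folding and TRiC client genes were detected, from the client Actb at 565 ± 52.2 TPM to Tbcc at 2.53 ± 0.127 TPM (SD, n = 2). The list medians were 11, 12.43 and 16.01 TPM, beside 7.0 TPM for all detected protein-coding genes. Eif2ak1, the haem-regulated kinase that HSP90 matures in erythroid cells, was at 6.41 and 5.55 TPM.

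**Figure D3:**
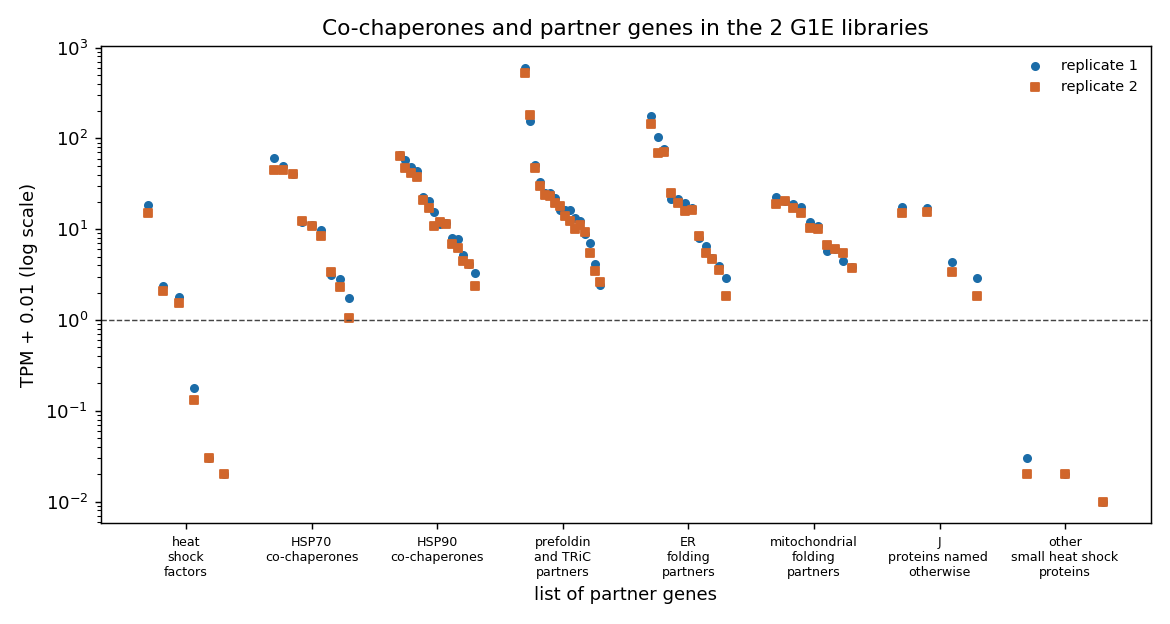
TPM plus 0.01 on a log axis for the genes of 8 partner lists, with circles for replicate 1, squares for replicate 2 and a dashed line at 1 TPM. The co-chaperone, prefoldin, ER, mitochondrial and other J-protein lists lie above the line, 3 of 6 heat shock factor genes lie below it and the other small HSPs lie near 0.

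The libraries were also set against each other, which compares 2 cultures of 1 group and no conditions. By an exact binomial test on scaled counts over 18409 genes, called at an adjusted p under 0.05 and at least 2-fold, 14.0% of all genes and 10.3% of nuclear protein-coding genes differed, 4.17% of all genes being higher and 9.81% lower in replicate 2. Of the 68 members with enough counts 2 (2.94%) differed. Hspa1b was higher in replicate 2, with 8 and 28.9 counts and a scaled ratio of 4.08 (exact 95% interval 1.82 to 10.3, adjusted p = 0.000712 by the exact binomial test). Dnajb7 was lower, with 18 and 1 counts and a ratio of 0.0625 (0.0015 to 0.396, adjusted p = 0.000726 by the same exact test). Both were below 0.1 TPM, and no detected member differed by this rule. The intervals and p-values cover counting error only, treat reads as independent molecules, and compare these 2 libraries.

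TPM gave a more uniform picture than counts. Of the 53 detected members 47 (88.7%) had a lower TPM in replicate 2, against 71.9% of all detected nuclear protein-coding genes. The median log2 TPM ratio of replicate 2 over replicate 1 was -0.22 for the members and -0.14 for those genes, and the median log2 ratio of scaled counts was -0.04 and 0.06. Hspa8 went the other way, with a log2 TPM ratio of 0.15. Late erythroid markers also differed between the libraries, with a sum over the 6 of 174 and 217 TPM. Hbb-bs (1.41 and 3.31 TPM) and Hbb-bt (0.90 and 1.98 TPM) were called higher in replicate 2. Hba-a2 (126 and 155 TPM) and Hba-a1 (44.9 and 56.5 TPM) were also higher without a call, and Alas2 was at 0.20 and 0.15 TPM. The 8 early markers summed to 340 and 302 TPM, and none was called. Their log2 ratios of scaled counts ran from -0.198 for Gata2 to 0.735 for Epor (2.24 and 3.24 TPM), so they showed no common fall. The 8 markers of other blood cells summed to 5.09 and 6.52 TPM, nearly all of it Pf4 (4.98 and 6.46 TPM). Cd14 was called lower in replicate 2, with 11 and 0 counts. Ms4a1 (19 and 6 counts) and Cd3e (4 and 0) were also lower there without a call, and Elane (0 and 6) was higher. Mcpt8 and S100a8 were among those at 0 in both. The part of these markers in the chaperone values was not tested.

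Several of the wider TPM gaps went with a change in effective length, the length by which the quantifier divides the counts. For Dnaja1 the log2 ratio of replicate 2 over replicate 1 was -0.12 for scaled counts and -0.70 for TPM, and the effective length rose by 0.39. Dnajc11, a mitochondrial J protein, had ratios of -0.01 and -0.57 and an effective length ratio of 0.38. For Hspa8 the ratios were 0.14 and 0.15, and the effective length fell by 0.19. In the 53 detected members the gene's effective length equalled the mean over its transcripts, weighted by their estimated abundance, to within 0.0207%, so it moves with the transcript make-up. It also differed with no change of make-up: Cct2 and Dnajc15, with 1 transcript each, had 1750 and 436 bases in replicate 1 and 1771 and 457 in replicate 2. TPM divides counts by this length, so the ratios of TPM and effective length are tied by arithmetic.

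**Figure D4:**
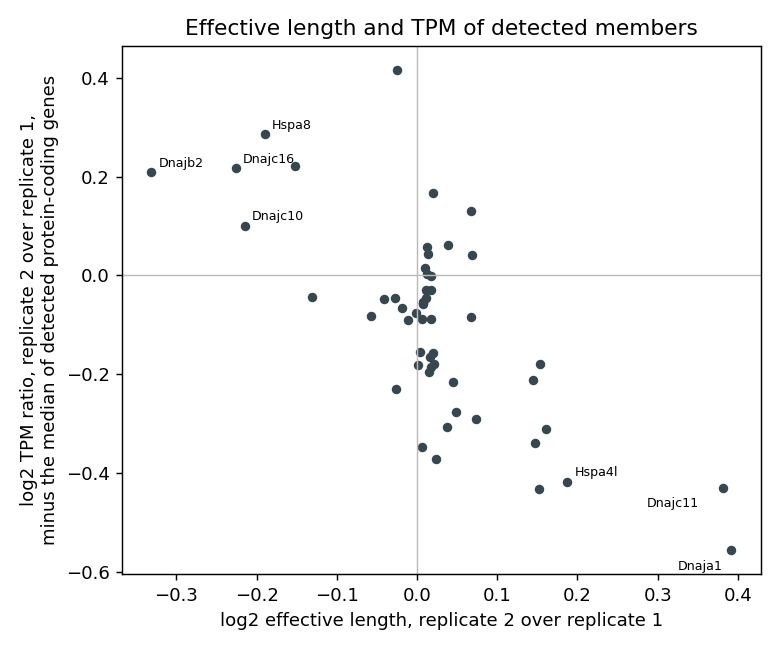
Log2 ratio of TPM between replicate 2 and replicate 1, minus the median of detected protein-coding genes, against the log2 ratio of the effective length, with 1 point for each of the 53 detected members. Dnaja1 and Dnajc11 lie at the lower right with effective length ratios of 0.39 and 0.38, and Hspa8 at the upper left.

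The transcript values are the quantifier's estimates of how reads divide among annotated transcripts, and do not show the molecules directly. The 53 detected members had 275 annotated transcripts, and 40 had more than 1. The leading transcript was the same in both libraries for 49, held over 90% in both for 22, and for 12 genes some transcript's share moved by 10 points or more. The same shares over all detected genes were not counted, so these numbers do not set the members apart. In Dnaja1 the 916 nt transcript Dnaja1-205 went from 36.1 to 10.8 TPM (55.6% to 26.8% of the gene), while the 3376 nt transcript Dnaja1-201 was at 15.1 and 16.2 TPM. In Dnajc11 the 3151 nt transcript Dnajc11-201 was at 9.22 and 9.02 TPM, and its retained-intron transcript Dnajc11-205 of 688 nt at 3.84 and 0.44 TPM. The short transcript was lower in replicate 2 in each of these genes, by more than the long one differed.

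The most abundant members differed among themselves. In Hsp90aa1 the 3281 nt transcript Hsp90aa1-202 was at 296 and 293 TPM, and the 2852 nt transcript Hsp90aa1-201 at 147 and 53.0 TPM. In Hspa8 the protein-coding transcript Hspa8-202 was at 405 and 361 TPM, and Hspa8-209, a processed transcript of 727 nt, at 130 and 228 TPM. The leading transcripts Hsp90ab1-201 (212 and 150 TPM) and Hspd1-201 (149 and 119 TPM) were lower in replicate 2. The Hspa8 gene's TPM was therefore higher in replicate 2 while its protein-coding transcripts summed to 418 and 368 TPM, lower in replicate 2. In Dnajb12, an ER-membrane J protein, Dnajb12-201 held 53.7% and 6.6% of the gene's TPM. The authors' TPM intervals, whose level no source used here gives, did not overlap between the libraries for Hspa8-209 (123 to 136 and 219 to 232 TPM), Hsp90aa1-201 (136 to 152 and 45.8 to 56.7 TPM) or Dnaja1-205 (34.0 to 37.4 and 9.313 to 11.99 TPM). They did not overlap either for the longer Hspa8-202 (398 to 406 and 354 to 361 TPM) and Dnaja1-201 (14.6 to 15.5 and 15.6 to 16.5 TPM). The intervals overlapped for Hsp90aa1-202 (288 to 302 and 286 to 296 TPM) and Dnajc11-201 (8.78 to 9.43 and 8.62 to 9.19 TPM). Each interval belongs to a library by itself and does not cover variation between replicates. The share of all transcripts without overlap was not counted. Gene TPM was lower in replicate 2 for 71.9% of detected nuclear protein-coding genes, with a median log2 ratio of -0.14. A lack of overlap therefore does not by itself set a transcript apart.

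**Figure D5:**
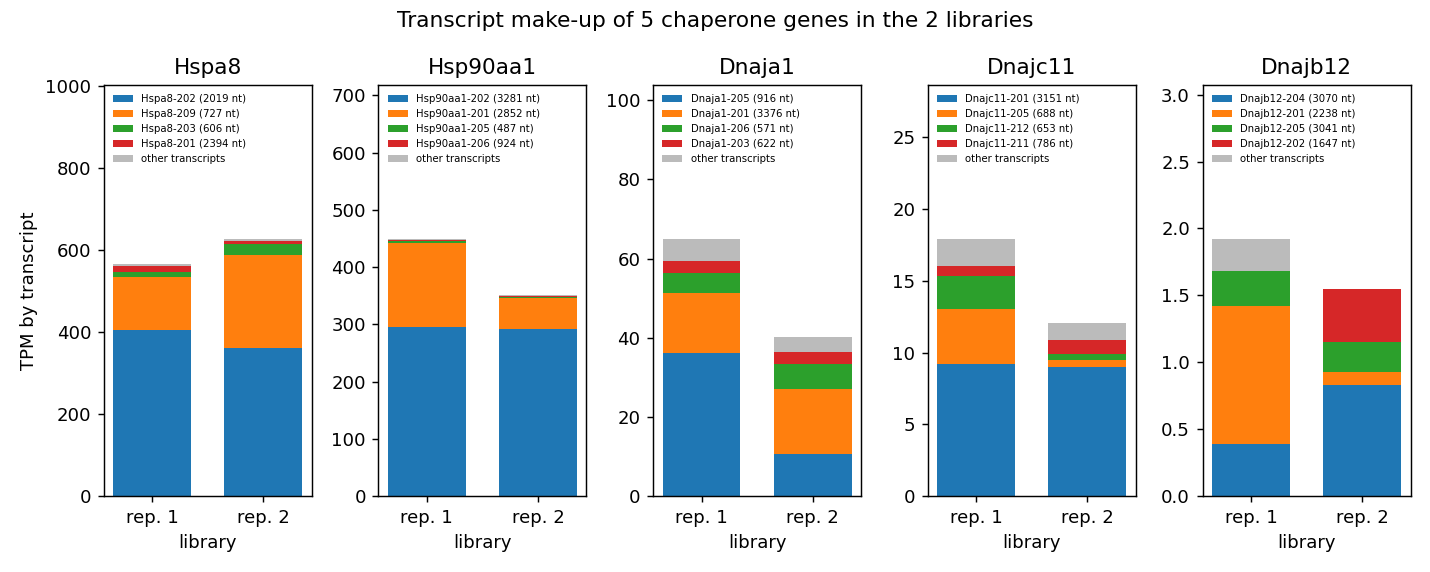
Stacked bars of TPM by transcript for 5 genes in each library, with the 4 transcripts of highest mean share coloured and the rest in grey, each panel on its own axis from 0. Hsp90aa1-202 is at 296 and 293 TPM and Dnajc11-201 at 9.22 and 9.02 TPM, while Hsp90aa1-201 and Dnajc11-205 take less in replicate 2, and Hspa8-209 takes more.

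Over the detected members, transcripts typed as protein-coding held 84.7% and 80.4% of the TPM in replicates 1 and 2. Processed transcripts held 5.99% and 11.2%, retained-intron transcripts 6.70% and 6.18%, and transcripts typed for nonsense-mediated decay 2.20% and 1.80%. Dnajc15 and Hspbap1 each had 1 transcript in these tables, and M21 types both for nonsense-mediated decay. In Dnajc7, which binds both HSP70 and HSP90, 56.4% and 58.6% of the TPM lay outside protein-coding transcripts, and in Hsp90ab1 25.2% and 24.8%.

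Read sharing with near-identical copies touched few members. By a posterior SD above 0.05 of the posterior mean in either library, 3 of the 80 were marked, Hspa1a, Hspa1b and Hspb1, against 6.98% of nuclear protein-coding genes with a count. For 65 members it was 0 in both libraries, and among detected members it was at most 1.59%.

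Small nucleolar RNA genes lie in introns of Hspa8, Hspa9, Tcp1 and Cct6a on the same strand. In Cct6a, Gm23245 (chromosome 5, 129789539 to 129789673) had 1386 and 4059 counts in replicates 1 and 2, and Snora15 had 39 and 70. In Tcp1, Gm26130 had 3.92 and 47.1 counts. In Hspa8, Snord14c had 6.96 and 18.9 counts, Snord14d 3.97 and 17.9, and Snord14e 0 and 0; those in Hspa9 had 0. Every hosted RNA with a count had the higher count in replicate 2. Of these, Gm26130, Snord14c, Snord14d and Snora20 (in Tcp1, 1 and 5 counts) rest on few counts in replicate 1. The share of all short RNA genes with a higher count in replicate 2 was not counted. The shared direction therefore does not set the hosted RNAs apart from other short RNAs. The log2 ratio of scaled counts of the hosts was -0.10 for Tcp1, -0.02 for Cct6a and 0.14 for Hspa8. These RNAs are shorter than the stated size range of 200 nt and their effective lengths were at most 6.5 bases, so their TPM is not used.

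Chaperone genes often sat head to head with a neighbour. For 23 of the 80 (28.8%) the start lay within 1000 bases of the start of a protein-coding gene on the opposite strand, against 10.9% of nuclear protein-coding genes, and for 17 of the 53 detected ones (32.1%) against 20.5%. Besides Hspd1 and Hspe1, Dnajc2 at 27.8 and 24.2 TPM faced Psmc2, a proteasome subunit, at 20.7 and 16.9 TPM, and Tcp1 faced Mrpl18, a mitochondrial ribosomal protein, at 42.1 and 40.1 TPM. Some pairs, Tcp1 and Mrpl18 among them, overlap at their 5′ ends, where reads are uncertain without the strand setting. Levels of the partners could differ widely: Cct5 at 90.04 and 81.71 TPM faced Fam173b at 1.22 and 1.95 TPM. Cct6b, near 0, faced Zfp830 at 9.09 and 7.57 TPM.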

How the data were processed

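In all, 2 biological replicates of total RNA from G1E cells were used, each with 1 gene and 1 transcript table. Per the file headers, the authors deposited expected counts (estimated reads, divided among genes they fit), their posterior mean and SD, TPM values scaled to a fixed total, and for transcripts the percent of the gene's abundance. The deposited read-me texts name mm10 and GENCODE M4. Aligner, quantifier, versions and strand setting: not given in the sources used here. Symbols, types and coordinates came from GENCODE M21 on the same assembly; 42462 gene identifiers matched and 884 did not.

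Levels are mean TPM ± SD over 2 libraries. Pairs were compared on log2(TPM + 1) against 3 times the combined pooled replicate SD, taken from protein-coding genes of like TPM with at least 10 counts. The libraries were compared by a two-sided exact binomial test of rounded expected counts with edgeR 4.0.16 TMM scaling. It was Benjamini-Hochberg adjusted over all genes that reached 10 counts in the 2 libraries together. The test was also run on simulated counts that held counting error only. Those counts had no variation between replicates, so they do not show how often it calls falsely in these libraries. Log2 ratios of counts had 0.5 added. With 1 library on each side a quasi-likelihood test has no residual degrees of freedom, and p-values reflect these 2 libraries only. DESeq2 1.42.0 size factors were an alternative. Python 3.11.15, scipy 1.17.1 and R 4.3.3 were used.

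Every member could be named; those at 100 TPM or more, each HSP70, HSP90, HSP110, HSP60, HSP10 and TRiC gene, the extremes of the other classes, and called or marked members came first, and of partner lists the highest, lowest and undetected genes. A few further genes (Gak, Psmc2, Mrpl18, Fam173b, Zfp830) were named after their values were seen. The members and lists were chosen with earlier results of these data known, and the 3-unit and ER element searches were added after the data were seen. Promoters came from RefSeq (GRCm38.p6). Protein sequences were not used here. For a total of 58094631 and 55274368 counts, depth limits the precision only of genes near 0.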

Additional observations from a re-analysis of the deposited data

How the results depend on the processing

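With TPM rescaled so that nuclear protein-coding genes fill the total, the median over the 80 genes was 29.32 TPM in place of 5.15, since those genes hold under 20% of the TPM as deposited, and detection was 60 of 80 in place of 53. Without a fold minimum 36 members differed between the libraries in place of 2, 12 higher and 24 lower in replicate 2, beside 9109 of all 18409 genes tested, so the members' share lay near the background. Leaving out 1 replicate at a time gave 53 to 55 detected members, medians of 4.57 to 5.725 TPM and 11 of 16 pairs past the limit each time. Under CPM, counts scaled by depth with no length correction, 13 pairs passed, Hsp90ab1 against Hsp90aa1 (-1.38) and Hspd1 against Hspe1 (1.96) being the added ones. With DESeq2 size factors or total counts Cct6b also differed between the libraries, making 3 calls, with adjusted p = 0.0483 and 0.0337 by the exact binomial test. Detection at 0.5 TPM gave 58 and posterior mean TPM 55. A limit of 0.1 marked 2 members for shared reads, and windows without the bases after the start held the 2-unit element in 16 of 65. No direction reversed under any of these alternatives. No paired analysis was possible because both libraries belong to 1 group. With 2 libraries the SD itself is poorly known, and genes under about 10 counts were not tested.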
